A study of Sus scrofa with 6 samples.

Results

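Genes of cell-cell junctions were followed in lungs of 6 pigs after extended partial hepatectomy (ePHx). Members were chosen by name among the main probe sets of the array: claudins (CLDN), cadherins (CDH), TJP scaffold genes, connexins (GJA, GJB and GJC), the desmosomal DSG and DSC genes, and OCLN, F11R, JAM2, JAM3, CTNNA1, CTNNB1, CTNND1, JUP, DSP, PKP2, CGN and MARVELD2. Of 11745 genes measured, 48 met this rule, and for each the brightest of its probe sets was used. They comprised 14 claudins, 6 other tight junction genes, 11 cadherins, 3 catenins, 9 connexins and 5 desmosomal genes. The symbols as deposited gave 32 of them, and updated symbols another 16, among them CDH2 and TJP1, which is listed as ZO1. The porcine RefSeq annotation holds 83 genes that meet the rule, and 35 of these, including E-cadherin (CDH1), VE-cadherin (CDH5), CLDN1 and CLDN3, were not analysed here.

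All 6 animals were adult male German landrace pigs in which 70% of the liver had been resected, and lung tissue was taken 24 h later. The 3 control animals received Ringer solution as vehicle. The 3 MSC-treated animals received porcine mesenchymal stromal cells from bone marrow (pBM-MSC), differentiated towards hepatocytes in culture, through a central vein. Lungs of sham-treated animals were not analysed here, so each comparison is between resected animals with and without cells. Each animal gave 1 Affymetrix porcine gene array, and values are log2 signals, on which a difference of 1 is a doubling. With 3 arrays a group, the precision of every value is limited. The arrays correlated between 0.963 and 0.989 with each other across genes. The mean of 23 antigenomic probe sets, which match no pig gene and give the background, ran from 3.88 to 4.24 over the arrays. The mean log2 signal of 6 alveolar type 2 markers was between 10.25 and 10.82 on all arrays, and that of 7 alveolar type 1 markers between 9.33 and 10.02. The design text of the series speaks of liver, while every sample is labelled lung. Of 5 liver markers, the enzyme gene CYP2E1 was at 3.09 to 3.73, SERPINA1 at 4.75 to 5.28, APOA1 at 7.36 to 7.77 and TF at 6.52 to 8.34. The albumin gene ALB had 7.65 in control replicate 1 and 3.70 to 5.40 on the other 5 arrays. The names of 3 arrays (control replicates 1 and 3 and MSC-treated replicate 2) carry the letters b-T, whose meaning is not given in the sources used here. These arrays are called the marked arrays, and values that take the mark into account are given where they bear on a result.

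Tight junctions seal the space between neighbouring epithelial or endothelial cells. Claudins form their strands and set which ions and solutes pass, occludin and JAM proteins accompany them, and ZO proteins tie them to actin. Adherens junctions hold cells together through cadherins and their catenins, desmosomes anchor keratin filaments, and connexins build the gap junction channels that couple cells. In the lung these junctions form the barrier between air spaces, tissue and blood.

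In MSC-treated lungs, CLDN10 was the only junction gene past the thresholds of the study, which are an unadjusted p under 0.05 in limma and a log2 difference of 0.5 or more in size. It was lower by 0.81 on the log2 scale (SE 0.25, n = 3 and 3). Of the 48 genes, 0 were higher and 1 was lower, beside 0.656% of all genes tested that were higher and 1.22% that were lower. At an adjusted p under 0.05 limma called 0 of the 11745 genes, while 324 had an unadjusted p under 0.05. By the methods' t-test, 0 genes passed after adjustment and 341 before. The median log2 fold change of the 48 genes was -0.08, with 20 positive and 28 negative values, beside -0.00 for all genes.

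Medians of the 6 families lay between -0.14 and 0.09. Claudins had a median of -0.14 with 10 of 14 negative, cadherins -0.08 with 6 of 11 negative, and desmosomal genes -0.10 with 4 of 5 negative. Catenins stood at -0.03, connexins at 0.08 and the other tight junction genes at 0.09. A log2 fold change of -0.3 or lower was found for 8 of the 48 (CLDN10, GJB7, CLDN5, CLDN18, CLDN4, CDH13, CLDN12 and CLDN11), beside 10.1% of all genes. A value of 0.3 or higher was found for 0 members and for 7.6% of all genes. Claudins made up 6 of those 8, and the 34 members that are not claudins had a median of -0.02. The counts of 8 and 0 depended on the setting. They were 7 and 2 with the mark as a covariate, beside 9.69% and 9.03% of all genes. Without MSC-treated replicate 1 they were 6 and 5, beside 11.7% and 10.1%, and without control replicate 1 they were 10 and 0, beside 11.5% and 9.33%. All 3 MSC-treated arrays lay below all 3 control arrays for 2 members, CLDN10 and CLDN4, beside 3.83% of all genes. They lay above for 0 members, beside 3.58% of all genes. SEs of the members ran from 0.15 to 0.40 with a median of 0.20. The 95% interval of the log2 fold change included 0 for 47 of them, and for 43 it stayed within 1 log2 unit of 0 in both directions.

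**Figure D1:**
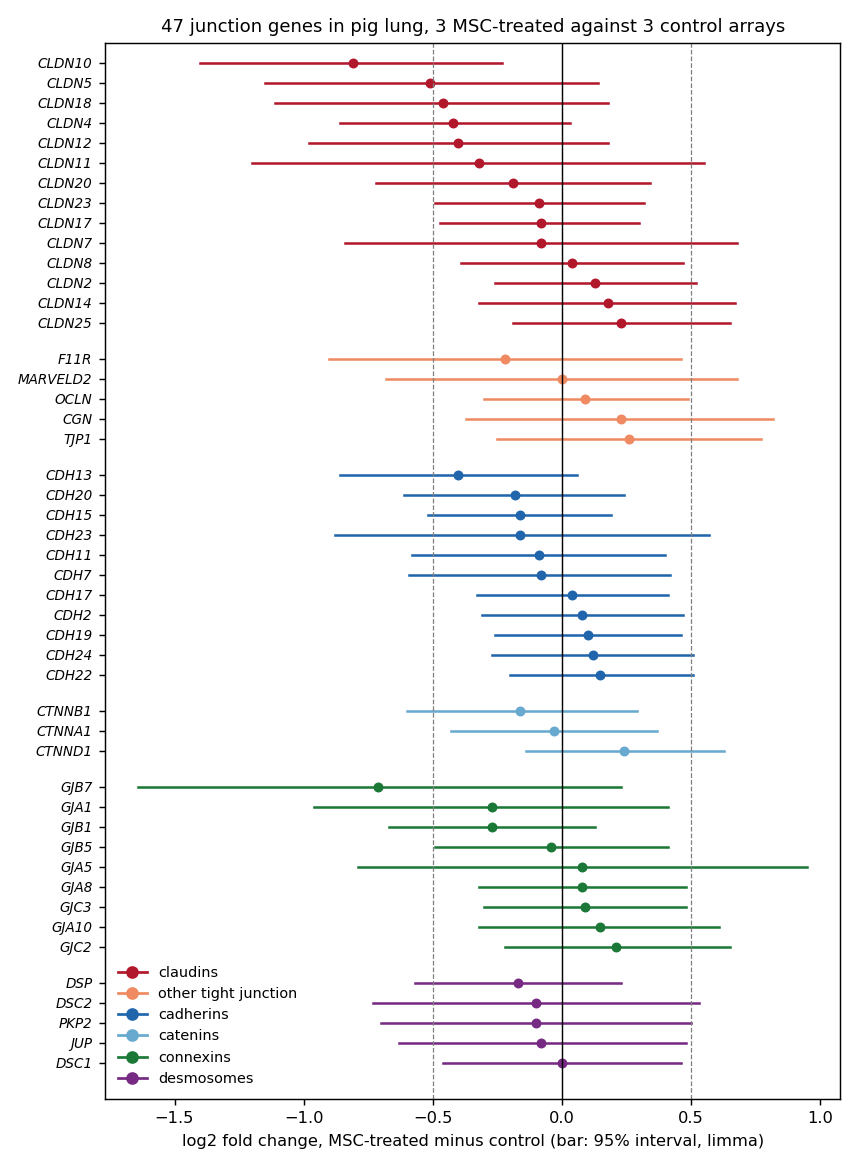
log2 fold changes (x axis, MSC-treated minus control) of 47 junction genes by family, with points for estimates, bars for 95% intervals of limma and dashed lines at -0.5 and 0.5. Only the interval of CLDN10, from -1.40 to -0.23, leaves out 0.

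CLDN10 encodes a claudin that builds paracellular ion pores. Its probe set holds 26 probes and is assigned to an Ensembl transcript on the plus strand of chromosome 11, from 71983268 to 72006790 in Sscrofa10.2. The control arrays had log2 signals of 6.83, 6.69 and 7.02, and the MSC-treated arrays 6.04, 6.52 and 5.56. Every MSC-treated lung was therefore below every control lung, and the MSC-treated lungs were more spread out. Means were 6.85 ± 0.17 and 6.04 ± 0.48 (SD, n = 3), and CLDN10 was 1.76-fold lower with a 95% interval of -1.40 to -0.23 on the log2 scale. The limma p was 0.013 unadjusted and 1 after adjustment over all genes. An exact permutation test (two-sided) gave p = 0.1, the smallest that 3 arrays against 3 can give. CLDN10 passed the thresholds without each of the 6 arrays in turn, with log2 fold changes from -1.05 to -0.57. With the mark as a covariate the log2 fold change was -0.65, with a difference of -0.41 among marked arrays and -0.89 among the rest. By the methods' t-test its p was 0.0501, which missed the threshold.

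CLDN4 is a claudin of tight epithelia that is known from the alveolar barrier. Control lungs had 7.82, 8.15 and 7.90, and MSC-treated lungs 7.26, 7.77 and 7.59. The groups did not overlap, but the nearest arrays, control replicate 1 and MSC-treated replicate 2, were almost level. CLDN4 had a log2 fold change of -0.42 (SE 0.19), with a limma p of 0.0619 unadjusted. It was past the thresholds without MSC-treated replicate 2 (-0.53) and not otherwise. Marked arrays alone differed by -0.09 and the others by -0.73.

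CLDN5 and CLDN18 mark the endothelial and the alveolar epithelial barrier of the lung. CLDN5 had 10.41, 10.31 and 9.39 in control lungs and 9.41, 9.48 and 9.70 in MSC-treated lungs. Control replicates 1 and 2 were higher than all other arrays, and control replicate 3 was the lowest of the 6. For CLDN5 the log2 fold change was -0.51 (SE 0.28, limma p 0.11), and without control replicate 3 it was -0.83 and past the thresholds. CLDN18, whose lung form is made by alveolar epithelial cells, had 9.80, 10.83 and 10.65 in control lungs and 10.17, 9.94 and 9.78 in MSC-treated lungs. Here control replicate 1 lay among the MSC-treated arrays and the other control arrays above them. For CLDN18 the log2 fold change was -0.46 (SE 0.28, limma p 0.136), and it was -0.78 and past the thresholds without control replicate 1. In these genes different control arrays were the low ones. Endothelial markers (5 measured of 9 listed) had mean log2 signals of 8.54 to 9.35 in control and 8.76 to 9.30 in MSC-treated lungs, and their median log2 fold change was -0.12. The alveolar type 2 markers had 10.49 to 10.82 and 10.25 to 10.77, with a median of -0.14. For the alveolar type 1 markers the ranges were 9.33 to 9.71 and 9.60 to 10.02, and the median was 0.20, opposite in sign. In whole tissue, fewer cells of a type and less RNA per cell cannot be told apart.

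Among the other claudins, CLDN12 (-0.40, SE 0.25) passed the thresholds only without MSC-treated replicate 2 (-0.60), and was chosen for mention after its values were seen. CLDN11, an oligodendrocyte and Sertoli cell claudin, had -0.32 with the widest error of the family (SE 0.38), and its control arrays ranged from 6.84 to 8.37. The value for CLDN11 was -0.05 with the mark as a covariate and 0.09 without control replicate 3. CLDN7, a claudin of epithelial cells, was at 9.01 in control replicate 2 and between 7.86 and 8.43 on the other 5 arrays, with a log2 fold change of -0.08 (SE 0.33). The remaining 7 claudins had log2 fold changes between -0.19 and 0.23. CLDN2 and CLDN17 had mean signals of 4.15 and 4.20, at the level of the background probe sets.

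**Figure D2:**
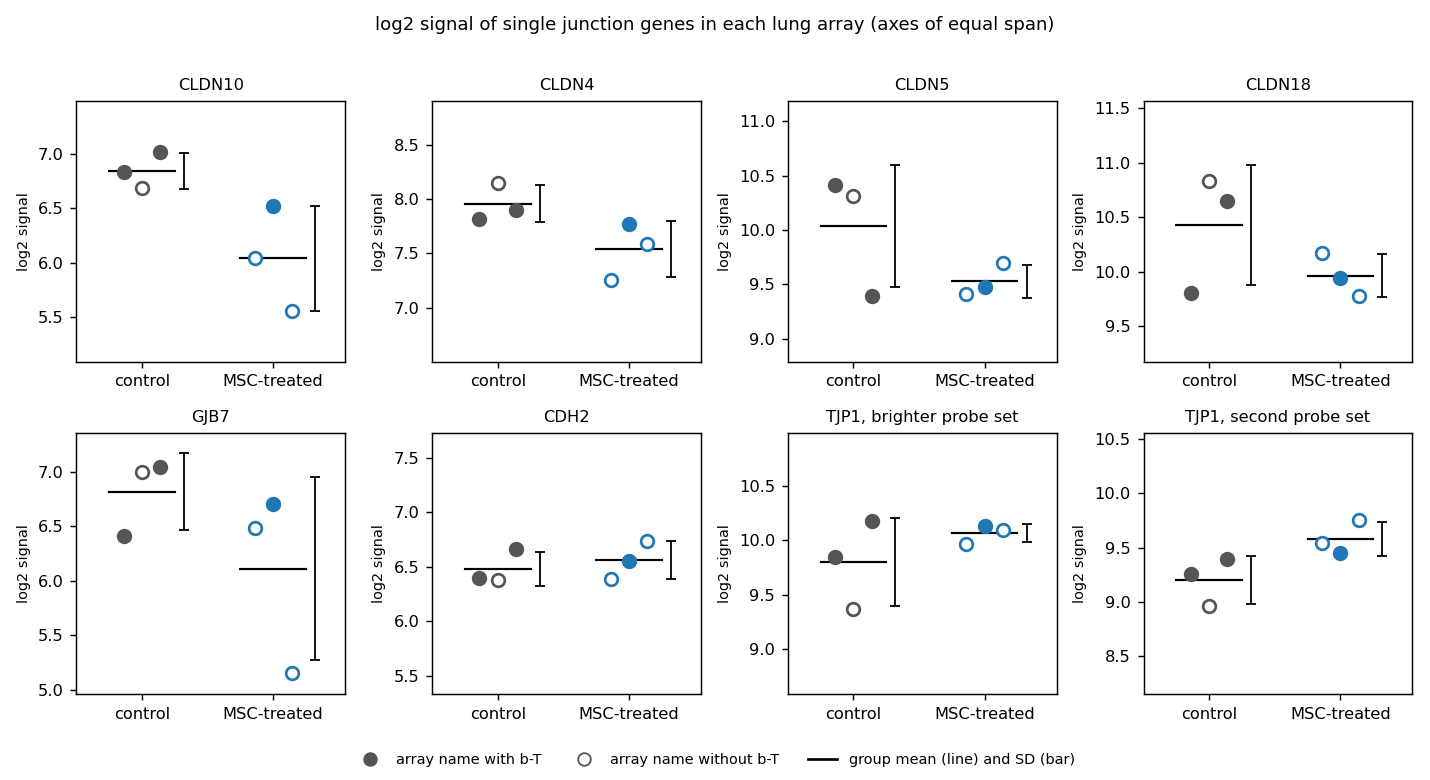
log2 signal (y axis, of equal span in each panel) of 7 junction genes, TJP1 with both probe sets, in the 3 control and 3 MSC-treated lungs. Filled points are marked arrays, lines are means and bars are SDs. CLDN10 and CLDN4 are lower in all MSC-treated lungs, while the second probe set of TJP1 is higher in all of them.

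The scaffold and membrane partners of the claudins did not pass the thresholds. TJP1 encodes ZO-1, which links tight junction strands to the actin cytoskeleton. It was measured by a pair of probe sets on chromosome 1, annotated on opposite strands. The brighter, assigned to a transcript from 161036719 to 161062878 in Sscrofa10.2, had 9.85, 9.37 and 10.18 in control lungs and 9.97, 10.13 and 10.09 in MSC-treated lungs. All MSC-treated arrays lay inside the range of the control arrays, whose SD was 0.40 against 0.09. This probe set had a log2 fold change of 0.26 (SE 0.22, 95% interval -0.25 to 0.77), which was 0.39 with the mark as a covariate and 0.05 without control replicate 2. The second probe set is assigned to a partial ZO1 gene sequence, and its array annotation allows hybridization with other transcripts. It had 9.26, 8.96 and 9.39 in control lungs and 9.54, 9.45 and 9.75 in MSC-treated lungs. Here all MSC-treated arrays lay above all control arrays, by 0.38 in the mean (exact permutation p = 0.1, the smallest possible). Over all genes, each by its brightest probe set, 3.58% were separated in this direction. Both probe sets of TJP1 had positive differences, and only the second separated the groups.

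Occludin (OCLN), a membrane protein of tight junction strands, had a log2 fold change of 0.09 (SE 0.17), with 8.53 to 8.88 in control and 8.63 to 8.93 in MSC-treated lungs. F11R, the junctional adhesion molecule JAM-A, had 9.73, 9.01 and 9.92 in control lungs and 9.03, 9.77 and 9.21 in MSC-treated lungs. The 3 marked arrays were the highest in both groups. The treatment difference of -0.22 (SE 0.29) was 0.02 with the mark as a covariate. CGN, the junction plaque protein cingulin, had 0.23 (SE 0.26), with 6.52 to 7.23 in control and 6.76 to 7.44 in MSC-treated lungs. MARVELD2, which encodes tricellulin of 3-cell contacts, had -0.00 with an SD of 0.61 in control and 0.05 in MSC-treated lungs.

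Of 11 cadherins, 0 passed the thresholds, beside 0.656% of all genes that were higher and 1.22% that were lower. CDH2, lies on chromosome 6 and encodes N-cadherin of mesenchymal and neural cells. Control lungs had 6.40, 6.38 and 6.66, and MSC-treated lungs 6.39, 6.55 and 6.74. The groups overlapped almost completely. For CDH2 the log2 fold change was 0.08 (SE 0.17, limma p 0.653), and its 95% interval of -0.31 to 0.47 leaves room for changes in either direction. Without MSC-treated replicate 3 it was -0.01. These values concern mRNA of whole lung tissue, and protein was not measured on the arrays.

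CDH13, T-cadherin, which is anchored to the membrane by a lipid and is found on endothelial and smooth muscle cells, had the largest difference of the family. It had 6.91, 6.55 and 6.95 in control lungs and 6.11, 6.63 and 6.47 in MSC-treated lungs. MSC-treated replicate 2 was above control replicate 2, which was the only crossing. CDH13 had a log2 fold change of -0.40 (SE 0.20, limma p 0.082), which was -0.53 without control replicate 2 and past the thresholds. CDH20 had -0.18 (SE 0.18), but its mean signal of 2.64 was under the background probe sets. The other 8 cadherins had log2 fold changes between -0.16 and 0.15. CDH17 and CDH19 also had mean signals of the background (4.24 and 2.26).

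Catenins join cadherins to the cytoskeleton. CTNNB1 encodes beta-catenin, which is also a signalling protein of the Wnt pathway. It had 10.26 to 10.51 in control lungs and 10.49, 10.32 and 9.91 in MSC-treated lungs, so only MSC-treated replicate 3 lay apart. The log2 fold change was -0.16 (SE 0.19), and 0.01 without that array. CTNND1, p120-catenin, which keeps cadherins at the membrane, had 10.30, 10.22 and 10.57 in control and 10.56, 10.74 and 10.52 in MSC-treated lungs. The difference of 0.24 (SE 0.17) became 0.31 with the mark as a covariate. CTNNA1, alpha-catenin, had -0.03 with its brighter probe set. A second probe set of CTNNA1, annotated on the opposite strand of chromosome 2, had 9.17, 9.09 and 9.16 on the marked arrays and 9.75, 10.28 and 10.32 on the others, a difference of -0.98. Its groups overlapped by treatment, with a difference of 0.58 between MSC-treated and control lungs (exact permutation p = 0.3), opposite in sign to the -0.03 of the brighter probe set, and it was chosen for mention after its values were seen.

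Of 9 connexins, 0 passed the thresholds, beside 0.656% of all genes that were higher and 1.22% that were lower. GJA1 encodes connexin 43, the most widely expressed connexin. It had 9.79, 10.20 and 9.38 in control lungs and 9.43, 9.10 and 10.03 in MSC-treated lungs. The groups overlapped, with MSC-treated replicate 2 the lowest and control replicate 2 the highest of the 6 arrays. The log2 fold change was -0.27 (SE 0.30), and -0.48 with the mark as a covariate. GJB7 had the second largest difference of all 48 genes and the widest error. Control lungs had 6.41, 7.0 and 7.04, and MSC-treated lungs 6.48, 6.70 and 5.15. The difference came mostly from MSC-treated replicate 3, which was far below all other arrays. The log2 fold change was -0.71 (SE 0.40, limma p 0.119), was -0.23 at its smallest when single arrays were left out, and was past the thresholds only without MSC-treated replicate 2 (-1.0). The other 7 connexins had log2 fold changes between -0.27 and 0.21.

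Of 5 desmosomal genes, 0 passed the thresholds, beside 0.656% of all genes that were higher and 1.22% that were lower. DSP encodes desmoplakin, which anchors keratin filaments to the desmosome. It had 7.69, 7.54 and 8.01 in control lungs and 7.61, 7.51 and 7.60 in MSC-treated lungs. Control replicate 3 was the highest and the others were close together, with a log2 fold change of -0.17 (SE 0.17). PKP2, the plaque protein plakophilin-2, had 4.11 to 4.88 and 4.25 to 4.84, and a log2 fold change of -0.10 (SE 0.26). JUP, plakoglobin, which is shared by desmosomes and adherens junctions, had -0.08. DSC1 and DSC2, the desmosomal cadherins measured, had 0.00 and -0.10 at mean signals of 3.81 and 2.4, which are at or under the background.

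**Figure D3:**
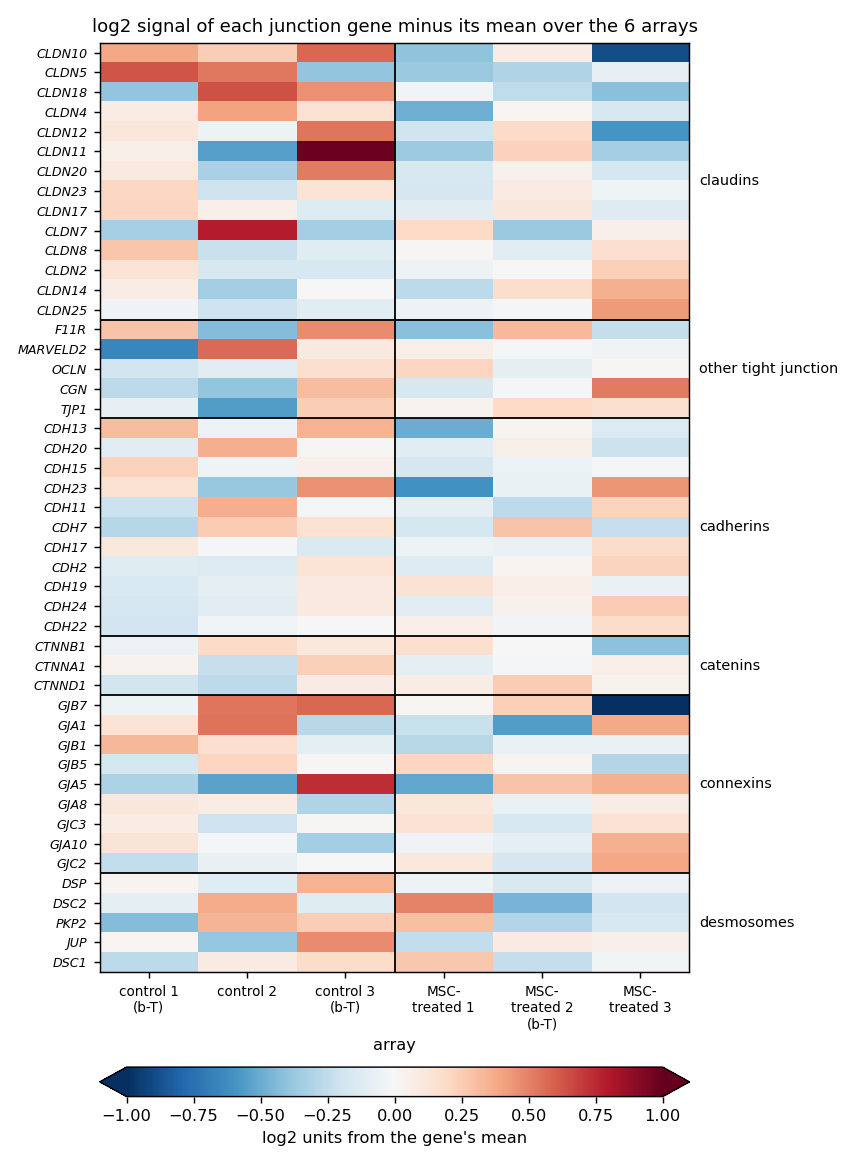
log2 signal of each of 47 junction genes (rows, by family) on each array (columns) as a difference from the mean of that gene over the 6 arrays. Single arrays carry the strongest colours, such as control replicate 3 for CLDN11, MSC-treated replicate 3 for GJB7 and control replicate 2 for CLDN7.

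Marked and other arrays differed past the thresholds in more genes than the treatment groups did. In the fit with both terms, 1621 of all genes passed for the mark and 340 for treatment, beside 220 for treatment fitted alone. The order was the same for the junction genes. Fitted together with treatment, the mark had a p under 0.05 and a log2 difference of at least 0.5 for 5 of the 48 genes, beside 13.8% of all genes. CLDN11 (0.83) and F11R (0.73) were higher and CLDN7 (-0.81), GJA1 (-0.63) and DSC2 (-0.54) lower on the marked arrays. CLDN11, CLDN7 and DSC2 were chosen for mention after their values were seen. None of the 48 had an adjusted p under 0.05 for the mark in limma, which 114 of the 11745 genes had. At a share this small, a count of 0 does not set the junction genes apart. Marked arrays lay above all others for 6 of the 48, beside 12.2% of all genes, and below for 2, beside 10.8%. With the mark as a covariate CLDN10 remained the only junction gene past the thresholds for treatment, and the median of the 48 genes was -0.04. The median of the claudins was then -0.05 (-0.11 among marked and -0.04 among other arrays), and that of the 34 other members 0.01, with -0.05 and 0.10. A term for a treatment difference that depends on the mark was also fitted, but it rests on 1 array in some groups and is not read. Of the marked arrays 2 are control and 1 is MSC-treated, so values among marked or among other arrays rest on 1 or 2 arrays a group.

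**Figure D4:**
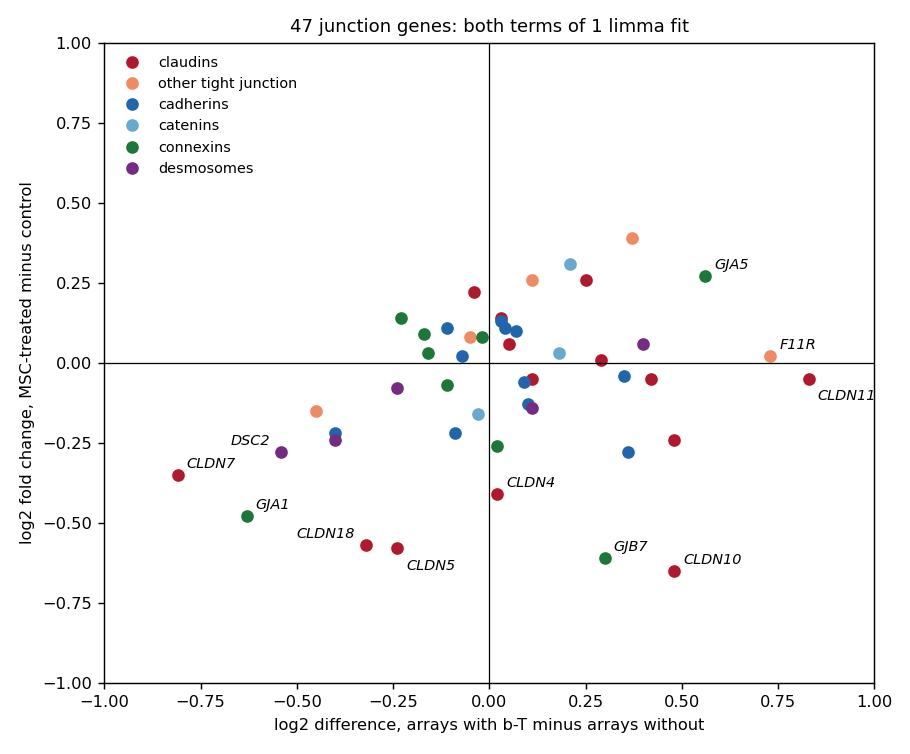
log2 difference between marked and other arrays (x axis) against the log2 fold change of MSC-treated over control lungs (y axis) for 47 junction genes, both terms of the same limma fit. CLDN10 is lowest on the y axis at -0.65, and CLDN11 (0.83) and CLDN7 (-0.81) lie farthest out on the x axis.

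Genes that build, place or regulate junctions outside the 48 were read from 6 lists. Of 100 listed genes 56 were measured, of which 0 were higher, 1 was lower and 55 did not pass the thresholds. Over all genes tested, 0.656% were higher and 1.22% lower. The 1 was PERP, a membrane protein of desmosomes that is a target of p53. It had 7.51, 7.53 and 7.33 in control lungs and 6.50, 7.05 and 6.27 in MSC-treated lungs. As for CLDN10, the groups did not overlap, MSC-treated replicate 2 was the highest and replicate 3 the lowest of the treated lungs. The log2 fold change of PERP was -0.85 (SE 0.22, limma p 0.00553 unadjusted and 1 adjusted), and -0.75 with the mark as a covariate. It passed the thresholds without each single array. The immunoglobulin-type adhesion genes had negative values in 6 of 6 (median -0.21). Transcription factors that repress and those that induce epithelial junction genes, pooled in a single list, were negative in 9 of 10 (median -0.18). Polarity genes had positive values in 6 of 7 (median 0.20). Over all genes tested, 5811 values were positive and 5934 negative, and no list was tested against this split. The plaque and tricellular proteins of tight junctions (10 genes, median 0.05), the plaque of adherens junctions and desmosomes (10 genes, median 0.07) and the proteases and signalling proteins that act on junctions (13 genes, median 0.03) were spread around 0.

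Markers of airway cells were examined beside CLDN10, and 1 of the 4 measured for secretory and basal cells passed the thresholds. Of 9 genes listed for airway secretory and basal cells 4 were measured, and all 4 had negative log2 fold changes (median -1.11, and -0.77 with the mark as a covariate). Their mean log2 signal was 7.10, 6.79 and 7.82 in control lungs and 5.82, 7.40 and 5.43 in MSC-treated lungs. These means overlapped between the treatment groups but were separated by the mark. They were 7.10 to 7.82 on marked arrays and 5.43 to 6.79 on the others. MSC-treated replicate 2, which carries the mark, was within the control range, and replicates 1 and 3, which do not, were below it. The treated lungs had the same order for CLDN10 and PERP, whereas control replicate 3 was the highest control for the airway markers and CLDN10 and the lowest for PERP. KRT5, the keratin of basal cells, was the 1 of the 4 past the thresholds, with 6.59, 6.84 and 6.79 in control lungs and 5.70, 6.34 and 5.36 in MSC-treated lungs (log2 fold change -0.94, SE 0.26). The secretory product genes SCGB3A1 (-1.29, SE 0.83) and BPIFA1 (-1.70, SE 0.92) did not pass, overlapped between the groups and were higher on the marked arrays, by 1.71 and 2.45. Among marked arrays alone, SCGB3A1 differed by 0.82 and BPIFA1 by -0.60. All 4 were above the background probe sets on every array, and 1, the basal cell keratin KRT15, had a mean under 5 and a log2 fold change of -0.15 (SE 0.20). General epithelial markers (5 measured of 8) were negative in 5 of 5 with a median of -0.22, and alveolar type 1 markers (7 of 7) had a median of 0.20. Ciliated cell markers (2 measured of 7) had a median of -0.10. The part of airway cells in the values of CLDN10 and PERP was not tested. Among blood cell markers, 4 of 4 neutrophil genes had negative values (median -0.81), and 1 was lower past the thresholds. Their mean log2 signal was 9.80, 8.35 and 7.87 in control and 8.17, 7.47 and 7.87 in MSC-treated lungs. Erythroid genes were negative in 4 of 4 (median -0.88), with 2 lower past the thresholds. Their means were 7.45, 6.20 and 6.26 in control and 5.47, 6.05 and 5.88 in MSC-treated lungs. Of 9 genes of NK and T lymphocytes 7 were positive (median 0.20), with 2 higher past the thresholds. Their mean was 7.37 in MSC-treated replicate 2 and 6.03 to 6.41 on the other arrays. Over all genes tested, 0.656% were higher and 1.22% lower. The part of blood cells in the junction values was not tested.

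**Figure D5:**
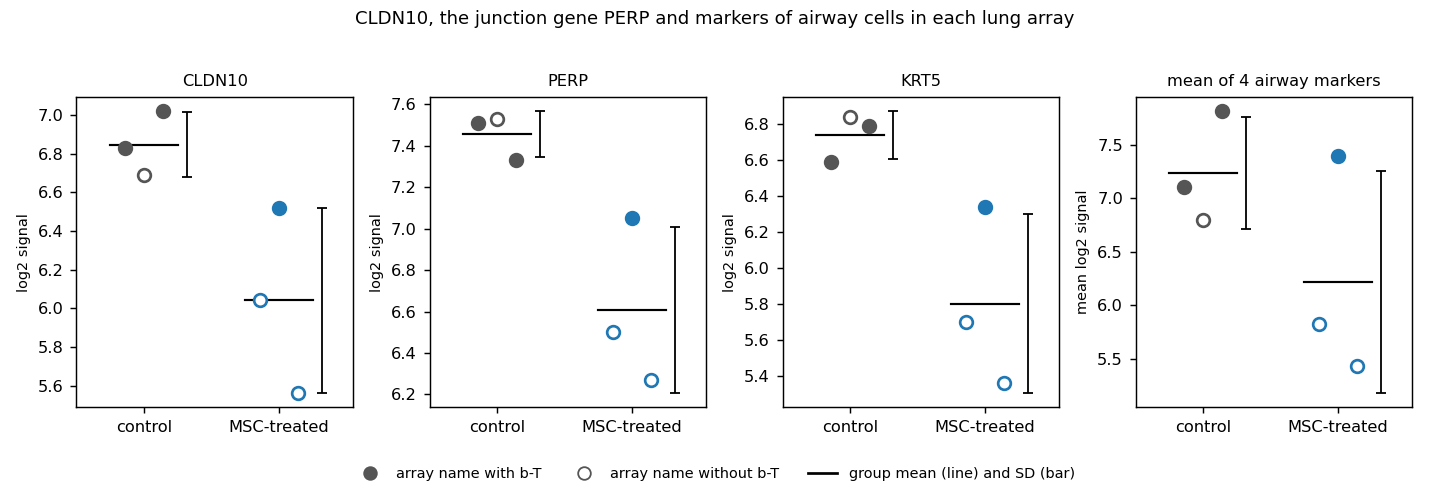
log2 signal (y axis, scaled to each panel) of CLDN10, PERP and KRT5 and the mean log2 signal of 4 airway markers in the 3 control and 3 MSC-treated lungs, with filled points for marked arrays, lines for means and bars for SDs. In each panel MSC-treated replicate 2 is the highest and replicate 3 the lowest of the MSC-treated lungs. The mean of the airway markers is higher on every marked array than on every other array, and overlaps between the treatment groups.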

How the data were processed

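Lung RNA of 6 animals was hybridized to Affymetrix porcine gene arrays. By RMA, in Affymetrix Expression Console 1.4 per the submitters' processing notes, the authors had turned intensities into the deposited log2 values, with background corrected, quantiles normalized and probes summarized. After quantile normalization a shift common to most genes is lost. The batch correction and other annotation of the methods are not part of these values, and a second deposited table held the same values. Other deposited columns hold annotation (probe set category, symbols, positions), and 6 columns of the second table, whose names matched no sample label, were used only to read the b-T mark of each array by equal values.

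Of 27558 probe sets, 19124 were main probe sets. Of these 12883 could be tied to 1 gene, 241 had several symbols and 6000 none. The 1039 genes with over 1 probe set were represented by the brightest. No filter on signal was set. The fit used lmFit and eBayes of limma 3.58.1 in R 4.3.3 with treatment alone (two-sided, Benjamini-Hochberg over all genes), and calls used the 2 thresholds of the methods. Self-tests were run on simulated arrays of 11745 genes, with means and variances taken from the fit to these data. Single genes also had exact permutation tests (scipy 1.17.1). Python 3.11.15 and matplotlib 3.10.9 made tables and plots. Alternatives were the mark as covariate or removed first, a replicate block, each array left out, other normalization, centring, signal, probe set, variance and weight settings, and the methods' t-test.

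Members and lists were chosen with earlier results of these data known, so no p was adjusted over them and no list was tested. Genes named are CLDN4, TJP1 and CDH2, members past the thresholds or without overlap at 0.3 or more, CLDN5, CLDN18, OCLN, F11R, CTNNB1, GJA1 and DSP, and the 2 of largest change in each family. Other genes appear in single clauses or are said to have been chosen after their values were seen. Replicates are separate animals, per the methods. The symbol GJD3, whose gene identifier carries another connexin name, was left out. The start and stop columns overlapped the Sscrofa10.2 positions of the assigned Ensembl transcripts for 39 of 6517 probe sets, so their build is not settled and only transcript positions are given. Sequences and liver arrays were not used here. The values of 1 member are not reported here, and it enters the counts and medians only.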

Additional observations from a re-analysis of the deposited data

Results flagged for a closer look

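The second probe set of TJP1 was not used in the main comparison, since each gene was represented by its brighter probe set. It was flagged because all 3 MSC-treated lungs were above all 3 control lungs, by 0.38 on the log2 scale (9.58 ± 0.15 against 9.2 ± 0.22, SD, n = 3, exact permutation p = 0.1, the smallest possible). Such a separation was also found for 3.58% of all genes, each by its brightest probe set. The brighter probe set of TJP1 differed by 0.26 with overlapping groups. The brighter probe set is annotated on the minus strand, although its assigned transcript is on plus, and the second on the plus strand. The probe sets of CLDN18, OCLN and CLDN8 are likewise annotated on the strand opposite to their assigned transcripts. By its annotation the second probe set of TJP1 may hybridize with other transcripts. The part of strand or of such hybridization in the difference was not tested.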

How the results depend on the processing

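For all genes, 220 were past the thresholds (77 higher, 143 lower). There were 340 with the mark as a covariate (195 higher, 145 lower), 425 with the mark removed first (227 higher, 198 lower), which leaves its estimation out of the error, 79 in the methods' t-test and 2 in that test at 2.0-fold. Centring on the median gave 92 higher and 117 lower. Leaving out single arrays gave 182 to 609, with 469 without control replicate 2 and 609 without MSC-treated replicate 2. Of the junction genes, 1 was past the thresholds (CLDN10), 1 to 4 when single arrays were left out (4 without MSC-treated replicate 2, and 2 without each control array), and 0 in the methods' t-test at either fold. The median log2 fold change of the junction genes, -0.08, stayed between -0.10 and 0.01 under the alternatives. With symbols as deposited only, an alternative chosen after seeing the data, it was -0.09 and 1 gene passed. A sign turned for F11R with the mark as a covariate and with the mark removed first (0.02 in both), for CDH2 (-0.01) and CTNNB1 (0.01) without MSC-treated replicate 3, and for PKP2 without control replicate 2 (0.04) and without MSC-treated replicate 2 (0.02). When single arrays were left out these 3 ran from -0.01 to 0.17, from -0.28 to 0.01 and from -0.34 to 0.04. Over 17 alternatives and 17 named genes, 274 values kept sign and side of the thresholds, 5 came past them, 2 no longer passed and 6 turned. CDH20 and PKP2 have no value with genes of a mean log2 of at least 5. The causes were not tested, except that fewer arrays enter when 1 is left out. With the replicate block, 167 of all genes and 1 junction gene passed. Same-numbered arrays did not deviate together (correlations of -0.41, -0.49 and 0.06). Each such pair holds 1 marked and 1 other array, so these values cannot show whether the numbers pair the animals. The 12 junction genes with a mean log2 under 5 limit what low signals can show.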
